A study of Mus musculus with 18 samples.

Results

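Mammary tumors started by T121 together with deletion of Brca1 and Trp53 were compared with tumors started by deletion of Brca1 and Trp53 alone, across all expressed genes. The 10 tumors were taken by their titles from the 18 RNA-seq libraries of the series: 5 tumors titled for Brca1, Rbf and p53, called B1/P/Rbf here, and 5 titled for Brca1 and p53, called B1/P. All 10 tumors grew in C57Bl/6 females with the alleles Brca1 fl/fl and Trp53 fl/fl, which Cre recombinase inactivates. The B1/P/Rbf mice also carried the transgene TgK18GT121 in the Tg/+ state. In that transgene keratin 18 regulatory sequence drives T121 once Cre has acted, and T121 is an N-terminal fragment of the SV40 large T antigen that binds the retinoblastoma (Rb) family. According to the study's methods, Cre was delivered to the mammary ducts of adult mice with an adenovirus, so that tumors started in the infected cells of an otherwise intact gland. Each library came from 1 bulk tumor that held tumor cells and host tissue together. The age of each mouse at collection is not given in the labels. Levels are given below as CPM, the counts of a gene scaled to library size, with the tumors of a group in the order 1 to 5. Where shown, 5 tumors with Trp53 loss and T121 but without Brca1 loss (P/Rbf) and 3 normal glands are described only by their levels.

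The Rb family consists of pRb, p107 and p130, the products of Rb1, Rbl1 and Rbl2. These pocket proteins bind E2F transcription factors and, with the DREAM complex, hold genes for cell cycle entry at a low level until cyclin-dependent kinases phosphorylate them. T121 binds all members of the family and takes them away from E2F. BRCA1 acts in homologous recombination and p53 in the response to damage and stress. The mammary epithelium is built of an inner luminal layer, which holds hormone-sensing and milk-producing cells, and an outer basal layer of contractile myoepithelial cells.

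The 10 libraries held from 27661173 to 36974448 estimated reads assigned to genes, with a median of 33159975. Of 19186 genes tested, 3195 (16.7%) passed edgeR's quasi-likelihood test of the 2 groups with an adjusted p no greater than 0.05. Higher levels in B1/P/Rbf tumors were called for 1413 genes (7.36%) and lower levels for 1782 (9.29%). The median difference over all tested genes was -0.06 on the log2 scale, and 46.3% of them had a positive value. Differences of 16-fold or more were found for 279 genes called higher and 435 called lower. For 960 genes (5.0%) all B1/P/Rbf tumors lay above all B1/P tumors, and for 1052 (5.48%) all lay below. Leaving out each tumor in turn gave from 2326 calls without B1/P/Rbf 2 to 3476 without B1/P 2. The genes below are described by lists of pathways and cell types, and each list is read against these shares of all genes. The lists were chosen with earlier results of these data known, so a share above that of all genes is description and no independent support.

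The transcripts of the genes that the model targets were examined first. Brca1 was at 21.1, 27.8, 45.0, 27.9 and 26.9 CPM in the B1/P/Rbf tumors and at 10.9, 21, 8.6, 27.9 and 8.13 CPM in the B1/P tumors. The groups overlapped, and the difference missed the threshold (log2 fold change 0.96 ± 0.36 SE, edgeR adjusted p = 0.0755). It passed the threshold when B1/P 4 was left out (1.29, edgeR adjusted p = 0.0215), in DESeq2 (adjusted p = 0.0484) and in limma-voom (adjusted p = 0.0463). PCR by the study found the floxed alleles recombined in all mammary tumors. Its RT-qPCR found the Brca1 transcript lost in every sample except the B1/P/Rbf tumor with the highest value here, where the loss was partial. Without that tumor, B1/P/Rbf 3, 2492 genes were called, and 2403 of them were shared with the calls over all tumors. Trp53 lay between 9.82 and 19.7 CPM in B1/P/Rbf and between 6.75 and 24.3 CPM in B1/P tumors, against a mean of 61.5 CPM in the normal glands. Its difference of -0.01 turned positive in several of the alternative settings. Gene totals include exons outside the floxed part, so neither transcript measures recombination. Krt18, the keratin whose regulatory sequence drives T121, was at 898, 614, 1520, 1180 and 637 CPM in B1/P/Rbf and at 322, 233, 204, 207 and 542 CPM in B1/P tumors. All 5 B1/P/Rbf values lay above all 5 B1/P values (1.68 ± 0.42, edgeR adjusted p = 0.0128). The T121 transcript itself was not analysed here.

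Among the pocket protein, E2F and DREAM genes, 6 of 37 tested members were higher in B1/P/Rbf tumors and 5 lower, and the median difference was 0.26. The pocket protein genes themselves moved in different directions. Rbl1, which encodes p107, was at 60.9, 77.7, 105, 102 and 144 CPM in B1/P/Rbf and at 52.2, 26.4, 41.8, 39.6 and 73.3 CPM in B1/P tumors. Most of the B1/P/Rbf values lay higher, with an overlap between the lowest of them and B1/P 5 (1.07 ± 0.30, edgeR adjusted p = 0.0221). Without B1/P/Rbf 5 the adjusted p for Rbl1 was 0.0615, above the threshold. Rbl2, which encodes p130, was at 30.0, 36.9, 39.4, 28.2 and 25.1 CPM against 77.1, 64.2, 34.1, 54.6 and 123 CPM. B1/P 3 alone fell inside the B1/P/Rbf range (-1.15 ± 0.26, edgeR adjusted p = 0.00669). Rb1 lay between 16.8 and 42.3 CPM in B1/P/Rbf and between 20.4 and 26.3 CPM in B1/P tumors, and its difference of 0.27 ± 0.31 missed the threshold (edgeR adjusted p = 0.577).

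The cyclin and kinase genes of this list differed in sign, and Ccnd1, Ccnd2 and Cdk6 held the largest differences. Ccnd1, which encodes cyclin D1, was at 31.8, 21.8, 30.4, 93.6 and 30.1 CPM in B1/P/Rbf tumors and at 434, 429, 173, 1110 and 1210 CPM in B1/P tumors. Every B1/P/Rbf value lay under every B1/P value, and B1/P/Rbf 4 stood above the rest of its group (-4.01 ± 0.71, edgeR adjusted p = 0.00172). Ccnd2, for cyclin D2, was at 31.1, 25.3, 23, 14.4 and 24.1 CPM against 185, 107, 208, 641 and 310 CPM (-3.62 ± 0.52, edgeR adjusted p = 0.00048). Cdk6, the kinase partner of the D cyclins, was at 23.6, 11.4, 16.2, 6.44 and 19.0 CPM against 363, 125, 374, 99.5 and 70.9 CPM (-3.75 ± 0.63, edgeR adjusted p = 0.00128). The groups did not overlap for either gene. The P/Rbf tumors, which carry T121 as well, ranged from 39.3 to 314 CPM for Ccnd1, from 11.2 to 58.7 CPM for Ccnd2 and from 4.36 to 50.4 CPM for Cdk6. Cdkn2c, which encodes the p18 inhibitor of CDK4 and CDK6, went the other way, at 128, 106, 82.1, 41.2 and 77.0 CPM in B1/P/Rbf against 19.9, 14.2, 12.9, 23.3 and 18.2 CPM in B1/P tumors (2.30 ± 0.33, edgeR adjusted p = 0.000528). Ccne2, for cyclin E2, was at 37.1, 48.7, 43.4, 62.0 and 61.7 CPM against 15.9, 14.4, 14.6, 33.7 and 27.2 CPM (1.26 ± 0.27, edgeR adjusted p = 0.00505). Rbbp4, a histone-binding subunit of the DREAM core, was at 315 to 621 CPM against 115 to 284 CPM (1.15 ± 0.22, edgeR adjusted p = 0.00262). These 3 genes showed no overlap between the groups. The other cyclin and kinase members of the list were not called by edgeR over all samples.

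**Figure D1:**
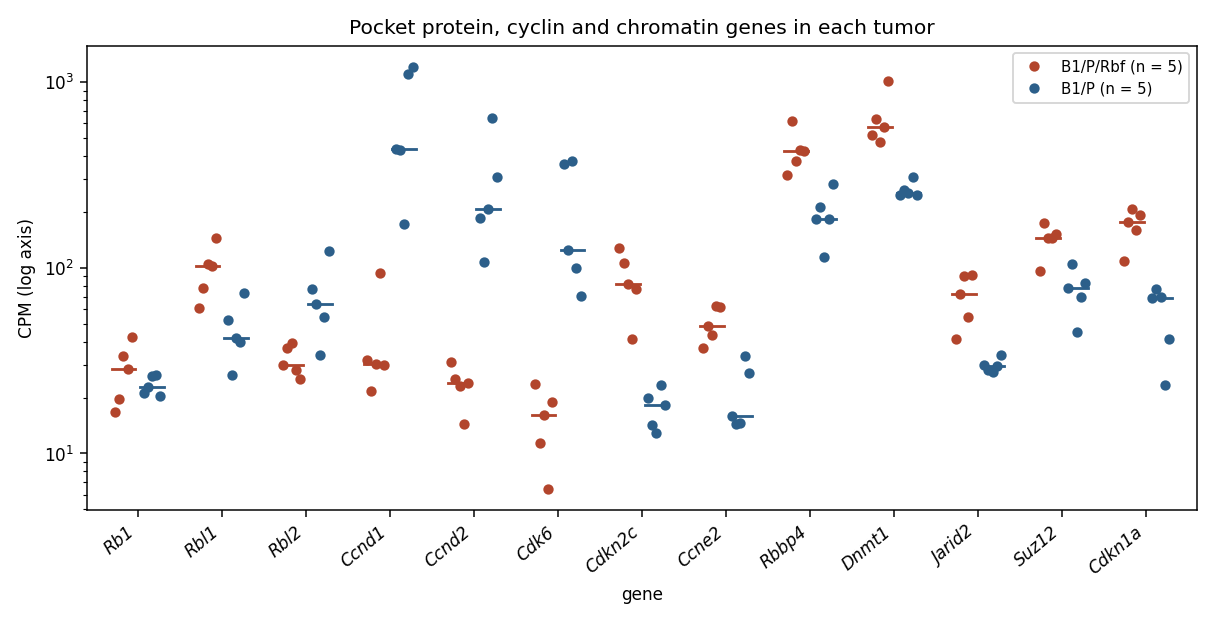
Levels of pocket protein, cyclin, kinase and chromatin genes by tumor, in CPM on a log axis, with 1 point per tumor and a line at the group median. For Ccnd1, Ccnd2 and Cdk6 the groups stand apart with the B1/P/Rbf tumors low, for Cdkn2c, Ccne2, Dnmt1 and Cdkn1a they stand apart with the B1/P/Rbf tumors high, and for Rb1, Rbl1, Rbl2 and Suz12 they overlap.

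Of the DNA methylation and Polycomb genes, 3 of 37 were higher and 3 lower, with a median of 0.04. Without B1/P 4 the number called higher was 5. The number called lower was 0 without B1/P 1 and 1 without B1/P/Rbf 1, 3 or 5 or B1/P 4 or 5. Both shares, 8.11%, were close to those of all genes. The genes that rose included the maintenance DNA methyltransferase and members of Polycomb repressive complex 2, which methylates histone H3. Dnmt1 was at 522, 636, 475, 575 and 1010 CPM in B1/P/Rbf tumors and at 246, 261, 253, 310 and 248 CPM in B1/P tumors, without overlap (1.29 ± 0.20, edgeR adjusted p = 0.000799). Jarid2, an accessory subunit that guides the complex, was at 41.5, 72.6, 90.1, 54.3 and 91.7 CPM against 30.0, 28.3, 27.6, 29.7 and 33.9 CPM, without overlap (1.23 ± 0.22, edgeR adjusted p = 0.00193). Suz12, a core subunit, was at 96.4, 174, 144, 145 and 153 CPM against 77.7, 105, 45.1, 69.8 and 83.2 CPM (0.90 ± 0.20, edgeR adjusted p = 0.00616). The lowest B1/P/Rbf value for Suz12 lay under that of B1/P 2.

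Of the called members described above, Rbl1 and Suz12 had promoters with the letters of an E2F site, which are printed because T121 acts on the proteins that bind E2F. The sequences come from RefSeq on GRCm38.p6 and cover the 250 bases before the gene start, 5′ to 3′ on the strand of the gene. The capitals mark a match to TTTCCCGC, TTTGGCGC or TTTCGCGC, searched on both strands. For Rbl1 the stretch is chr2:157204535-157204784 on the minus strand, and the match lies 18 to 11 bases before the start. For Suz12 it is chr11:79992856-79993105 on the plus strand, with the match 219 to 212 bases before the start.
Rbl1: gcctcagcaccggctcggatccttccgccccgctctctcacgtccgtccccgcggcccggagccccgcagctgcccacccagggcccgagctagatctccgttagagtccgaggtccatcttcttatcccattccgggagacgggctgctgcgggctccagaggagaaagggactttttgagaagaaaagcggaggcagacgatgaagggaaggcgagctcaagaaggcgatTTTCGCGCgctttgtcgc
Suz12: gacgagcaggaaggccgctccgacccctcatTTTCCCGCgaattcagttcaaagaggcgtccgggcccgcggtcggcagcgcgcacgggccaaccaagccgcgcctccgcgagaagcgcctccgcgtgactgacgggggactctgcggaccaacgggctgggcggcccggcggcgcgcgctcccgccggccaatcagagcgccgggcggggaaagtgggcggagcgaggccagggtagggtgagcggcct
Such letters were found in 348 of 13281 promoters of tested genes (2.62%). Among pocket protein, E2F, DREAM, DNA methylation and Polycomb genes, 9 of 60 promoters held them. A promoter was matched for 69.2% of the tested genes, too small a part to compare the promoters of called genes with those of others, so no such shares are given. A match describes the letters and is no measurement of binding.

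The replication-dependent histone genes, whose transcripts accumulate in S phase, lay mostly on one side without passing the test. Of 34 tested, 32 had a positive difference, with a median of 1.17 (0.77 without B1/P/Rbf 2), and 0 were called in either direction by edgeR, whereas 9 were higher at an unadjusted p under 0.05, 5 were called higher by DESeq2 and 0 by limma-voom. Their summed level ranged from 483 to 902 CPM in B1/P/Rbf tumors and from 271 to 545 CPM in B1/P tumors, so the groups overlapped. EdgeR called 3 higher without B1/P/Rbf 1, 2 without B1/P 4 and 1 without B1/P 5. Among the p53 target genes, 4 of 35 were higher and 4 lower, with a median of -0.06. Without B1/P/Rbf 5 or B1/P 3 the number called lower was 2. Cdkn1a, the p21 inhibitor of cyclin-dependent kinases, was at 109, 177, 207, 160 and 192 CPM in B1/P/Rbf and at 68.5, 76.6, 69.7, 23.5 and 41.2 CPM in B1/P tumors, without overlap (1.60 ± 0.32, edgeR adjusted p = 0.00314). Trp53inp1, a stress-induced partner of p53, was at 434, 229, 549, 141 and 1190 CPM against 88.6, 35.5, 46.7, 114 and 84.7 CPM, also without overlap (2.78 ± 0.65, edgeR adjusted p = 0.00798). Phlda3, which restrains AKT at the membrane, was at 13.4, 5.4, 9.73, 11.4 and 6.98 CPM against 50.3, 15.7, 73.2, 77.2 and 101 CPM (-2.75 ± 0.43, edgeR adjusted p = 0.000799).

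The regulators of neural crest and of basal-like breast cells differed by some of the largest folds in the comparison. Of 30 tested, 12 were lower in B1/P/Rbf tumors and 3 higher, with a median of -1.20. The median was -0.74 without B1/P 4 and -0.66 with a term for 2 library sets. These sets are inferred from fold changes the study tabulated and named in no label, and they separate B1/P 4 and 5 from the other tumors compared. The study's methods describe all samples of the series as pooled for sequencing, so the sets remain an inference. Only the B1/P group has tumors in both sets, so the fit with this term in effect compares B1/P/Rbf with B1/P 1 to 3. Sox10, the transcription factor of neural crest and of mammary stem and progenitor cells, was at 0.17, 0.0809, 0.303, 0.0507 and 2.73 CPM in B1/P/Rbf tumors and at 439, 164, 428, 612 and 493 CPM in B1/P tumors. It was thus at 0.303 CPM or less in 4 of the B1/P/Rbf tumors, higher in B1/P/Rbf 5, and abundant in every B1/P tumor (-9.35 ± 1.3, edgeR adjusted p = 0.000422). In bulk tumors fewer cells of a type and less RNA per cell cannot be told apart, here and for every list that follows. Bcl11a, a transcriptional repressor of triple-negative breast cancer, was at 0.284, 0.378, 0.0276, 0.0254 and 0.714 CPM against 153, 14.3, 153, 120 and 115 CPM (-8.61 ± 0.94, edgeR adjusted p = 7.61e-05). Sox8, a close relative of Sox10, was at 0 to 0.162 CPM against 2.31 to 27.5 CPM (-7.81 ± 0.97, edgeR adjusted p = 0.000196). The levels of P/Rbf tumors reached 1.89 CPM for Sox10, 0.442 for Bcl11a and 0.17 for Sox8, while the normal glands averaged 25.5, 12.4 and 1.79 CPM.

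Id4, an inhibitor of differentiation in mammary basal cells, was at 1.73, 11.5, 23.1, 2.11 and 1.79 CPM in B1/P/Rbf and at 189, 1.39, 459, 277 and 382 CPM in B1/P tumors. B1/P 2 lay under all 5 B1/P/Rbf tumors while the other B1/P tumors lay far above them (-5.02 ± 1.13, edgeR adjusted p = 0.00659). In limma-voom Id4 missed the threshold (adjusted p = 0.0781). The genes that rose in this list were Vgll1, Vtcn1 and Msx1. Vgll1, a cofactor of TEAD transcription factors, was at 17.1, 44.9, 34.8, 9.77 and 14.3 CPM in B1/P/Rbf against 0.0954, 0, 0, 0.237 and 0.158 CPM in B1/P tumors (7.92 ± 1.23, edgeR adjusted p = 0.00103). Vtcn1, the immune checkpoint ligand B7-H4, was at 169, 81.7, 147, 96.7 and 48.7 CPM against 11.5, 18.5, 5.73, 3.08 and 22.1 CPM (3.16 ± 0.77, edgeR adjusted p = 0.0109). Msx1, a homeobox factor, was at 6.62 to 29.9 CPM against 1.39 to 4.73 CPM (2.68 ± 0.52, edgeR adjusted p = 0.00284). The groups did not overlap for any of these 3.

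Markers of the basal layer were low in B1/P/Rbf tumors more often than high. Of 20 myoepithelial and smooth muscle genes, 6 were lower and 0 higher, with a median of -1.27, and without B1/P/Rbf 1 the number lower was 10. Oxtr, the oxytocin receptor through which myoepithelial cells contract, was at 0.652, 0.621, 0.386, 0.355 and 1.82 CPM in B1/P/Rbf and at 48.5, 2.7, 10.4, 18.8 and 6.4 CPM in B1/P tumors, without overlap (-4.50 ± 0.93, edgeR adjusted p = 0.00392). Of 39 squamous and cornified genes, 4 were lower and 1 higher, with a median of -1.23. The share lower, 10.3%, was close to that of all genes. The median was 0.31 without B1/P 3, -2.05 without B1/P/Rbf 5 and -0.29 in limma-voom. Both counts depended on single tumors, and the number lower was 1 without B1/P/Rbf 3 or B1/P 3, 2 without B1/P/Rbf 2, B1/P/Rbf 5 or B1/P 5 and 7 without B1/P 2. Calml3, a calmodulin-like protein of keratinocytes, was at 0.351 to 1.25 CPM against 60.3, 6.43, 22.4, 67.7 and 58.7 CPM (-5.81 ± 1.05, edgeR adjusted p = 0.00189).

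**Figure D2:**
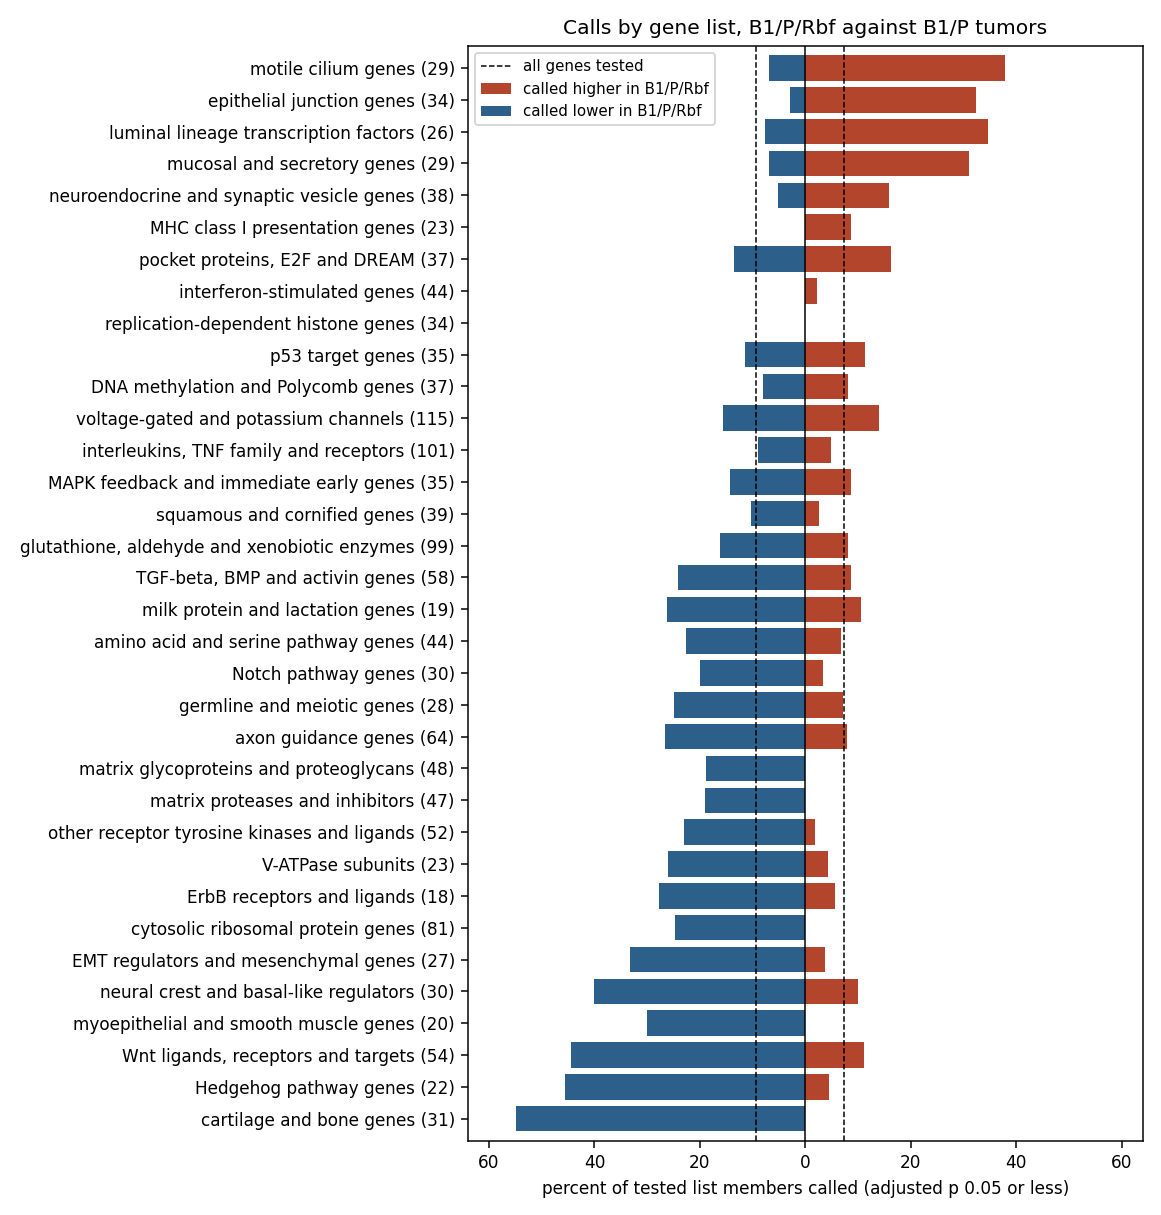
Percent of the tested members of each gene list that were called higher (right) and lower (left) in B1/P/Rbf tumors, with the number of members tested in brackets and dashed lines at the shares of all tested genes, 7.36% and 9.29%. Cartilage and bone genes have 17 of 31 members on the lower side and 0 on the higher side, and motile cilium genes have 11 of 29 on the higher side.

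Cartilage and bone genes were called lower far more often than all genes. Of 31 tested, 17 (54.8%) were lower in B1/P/Rbf tumors and 0 higher, the median was -3.24, and for 12 the B1/P/Rbf tumors all lay under the B1/P tumors. Between 15 and 18 were called lower when any 1 tumor was left out, and 1 was higher without B1/P 4. With the filter of at least 6 CPM in 6 samples 13 were tested, 5 of them lower, and the median was -1.34. A gene that reaches 6 CPM only in the 5 B1/P tumors cannot pass that filter, so it does not test such genes. Col2a1, the main collagen of cartilage, was at 0.17, 0.0809, 0.0827, 0.127 and 0.422 CPM in B1/P/Rbf and at 386, 101, 16.8, 24.8 and 2.71 CPM in B1/P tumors (-9.23 ± 1.32, edgeR adjusted p = 0.000476). Col9a1, which decorates the type II fibrils, was at 0.17, 0.054, 0.0551, 0 and 0.811 CPM against 62.7, 134, 62.2, 943 and 21.8 CPM (-10.18 ± 1.3, edgeR adjusted p = 0.000233). The B1/P tumors themselves differed widely, with B1/P 1 highest for Col2a1 and B1/P 4 highest for Col9a1. Matn4, a matrilin of the cartilage matrix, was at 0.0276 to 0.199 CPM against 406, 1.1, 1.06, 26.4 and 1.89 CPM (-9.37 ± 1.75, edgeR adjusted p = 0.00234). B1/P 1 was by far the highest for Matn4, whose difference ranged from -10.01 to -5.77 over the alternative settings. Snorc, a proteoglycan of chondrocytes, was at 0, 0, 0, 0.0254 and 0.584 CPM against 119, 0.474, 12.2, 112 and 113 CPM, with B1/P 2 just under the highest B1/P/Rbf tumor (-9.24 ± 1.51, edgeR adjusted p = 0.00106). The summed level of the list was 125 to 237 CPM in B1/P/Rbf and 697 to 3590 CPM in B1/P tumors. None of Col2a1, Col9a1, Matn4 and Snorc exceeded 0.883 CPM in P/Rbf tumors.

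The lists of the wider extracellular matrix also had members called lower and none called higher over all tumors. Of 48 matrix glycoproteins and proteoglycans, 9 were lower and 0 higher, with a median of -1.03 that was -0.48 without B1/P 2. The count lower was 16 without B1/P/Rbf 1, and it was 3 without B1/P/Rbf 2, 5 without B1/P/Rbf 3, 4 without B1/P/Rbf 5 and 5 without B1/P 2 or B1/P 3. Vcan, the large proteoglycan versican, was at 23.2, 8.36, 18.9, 10.3 and 12.2 CPM in B1/P/Rbf and at 389, 203, 143, 273 and 235 CPM in B1/P tumors, without overlap (-4.09 ± 0.65, edgeR adjusted p = 0.000934). Of 47 matrix proteases and inhibitors, 9 were lower and 0 higher, with a median of -0.70 that was -0.32 without B1/P 2. The count lower was 15 without B1/P/Rbf 1 and 5 without B1/P/Rbf 2, and 4 were higher without B1/P 2. Hpse2, a relative of heparanase without enzyme activity, was at 0.0284, 0, 0, 0 and 0 CPM against 30.3, 6.52, 0.704, 41.8 and 38.9 CPM, at least 280-fold lower on group means with a floor of 3 counts per library (edgeR adjusted p = 0.000206). Among genes of epithelial to mesenchymal transition, 9 of 27 were lower and 1 higher, with a median of -1.09. Without B1/P 2 that median was -0.67. Cdh2, or N-cadherin, was at 1.39, 0.513, 1.3, 1.07 and 0.584 CPM against 14.2, 24.6, 4.3, 129 and 20.3 CPM (-5.30 ± 0.87, edgeR adjusted p = 0.0011). Vim, the mesenchymal filament vimentin, was at 231, 93.6, 82.1, 108 and 112 CPM against 400, 703, 293, 470 and 298 CPM (-1.79 ± 0.34, edgeR adjusted p = 0.00254). The groups did not overlap for either. Snai2, the repressor Slug, was at 3.8 to 6.53 CPM against 47.7, 4.41, 47.4, 28.9 and 98.0 CPM, with B1/P 2 inside the B1/P/Rbf range (-3.16 ± 0.65, edgeR adjusted p = 0.00371).

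Epithelial junction genes had more members called higher than lower. Of 34 tested, 11 were higher and 1 lower, with a median of 0.62, and between 9 and 14 were higher when any 1 tumor was left out. With a term for library sets 5 were higher. The count lower was 3 without B1/P 2. Cdh1, or E-cadherin, was at 1370, 1440, 1210, 906 and 545 CPM in B1/P/Rbf and at 371, 394, 208, 328 and 422 CPM in B1/P tumors, without overlap (1.67 ± 0.30, edgeR adjusted p = 0.00181). Ocln, for the tight junction protein occludin, was at 41.4, 58.1, 116, 47.5 and 84.1 CPM against 20.7, 22.5, 4.9, 13.6 and 31.7 CPM (1.89 ± 0.42, edgeR adjusted p = 0.00633). Tjp3, a scaffold of tight junctions, was at 50.0 to 143 CPM against 10.3 to 30.4 CPM (2.33 ± 0.37, edgeR adjusted p = 0.000961). Cldn4, a claudin of luminal cells, was at 913, 616, 648, 411 and 428 CPM against 118, 333, 74.5, 30.0 and 139 CPM (2.12 ± 0.50, edgeR adjusted p = 0.00909). With a term for library sets the adjusted p for Cldn4 was 0.0535. Cldn1 was the member that fell, at 1.32 to 5.45 CPM against 50.3, 8.94, 18.0, 9.61 and 85.8 CPM (-3.40 ± 0.79, edgeR adjusted p = 0.00783).

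Markers of host cells were measured beside these matrix and junction lists. Of 15 fibroblast markers 3 were lower and 0 higher, and their summed level was 1040 to 5410 CPM in B1/P/Rbf and 3080 to 14100 CPM in B1/P tumors. Without B1/P/Rbf 1, whose sum was the highest of its group, 10 fibroblast markers were lower, and without B1/P/Rbf 2, B1/P/Rbf 4, B1/P/Rbf 5 or B1/P 3 the count was 1. Col1a1, the main collagen of fibroblasts, was at 231 to 1310 CPM against 649 to 3610 CPM and missed the threshold (-1.49 ± 0.59, edgeR adjusted p = 0.0917). It passed in DESeq2 (adjusted p = 0.0444) and without B1/P/Rbf 1 (-2.13, edgeR adjusted p = 0.0218). Pdgfra was at 4.26 to 118 CPM against 53.7 to 181 CPM and also missed it (-1.89 ± 0.74, edgeR adjusted p = 0.0909). It passed in DESeq2 (adjusted p = 0.0351), in limma-voom (-2.72, adjusted p = 0.00746) and without B1/P/Rbf 1 (-3.51, edgeR adjusted p = 0.00149). Pdgfrb was lower without overlap, at 26.7 to 84.1 CPM against 94.6 to 199 CPM (-1.23 ± 0.31, edgeR adjusted p = 0.013). Of 9 pericyte markers 4 were lower and 0 higher, and their sum was 321 to 769 CPM against 550 to 1030 CPM. Of 14 Schwann cell and nerve markers 5 were lower and 1 higher, with a sum of 220 to 551 CPM against 496 to 1010 CPM. Of 12 epithelial markers 4 were higher and 0 lower, and their sum was 4040 to 8520 CPM against 1150 to 4070 CPM. Epcam, an adhesion molecule of epithelial cells, was at 467 to 1050 CPM against 260 to 846 CPM and did not pass the test (0.66 ± 0.31, edgeR adjusted p = 0.156), but passed without B1/P 1 (0.96, edgeR adjusted p = 0.041). The part of these cell types in the matrix, cartilage and junction results was not tested.

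**Figure D3:**
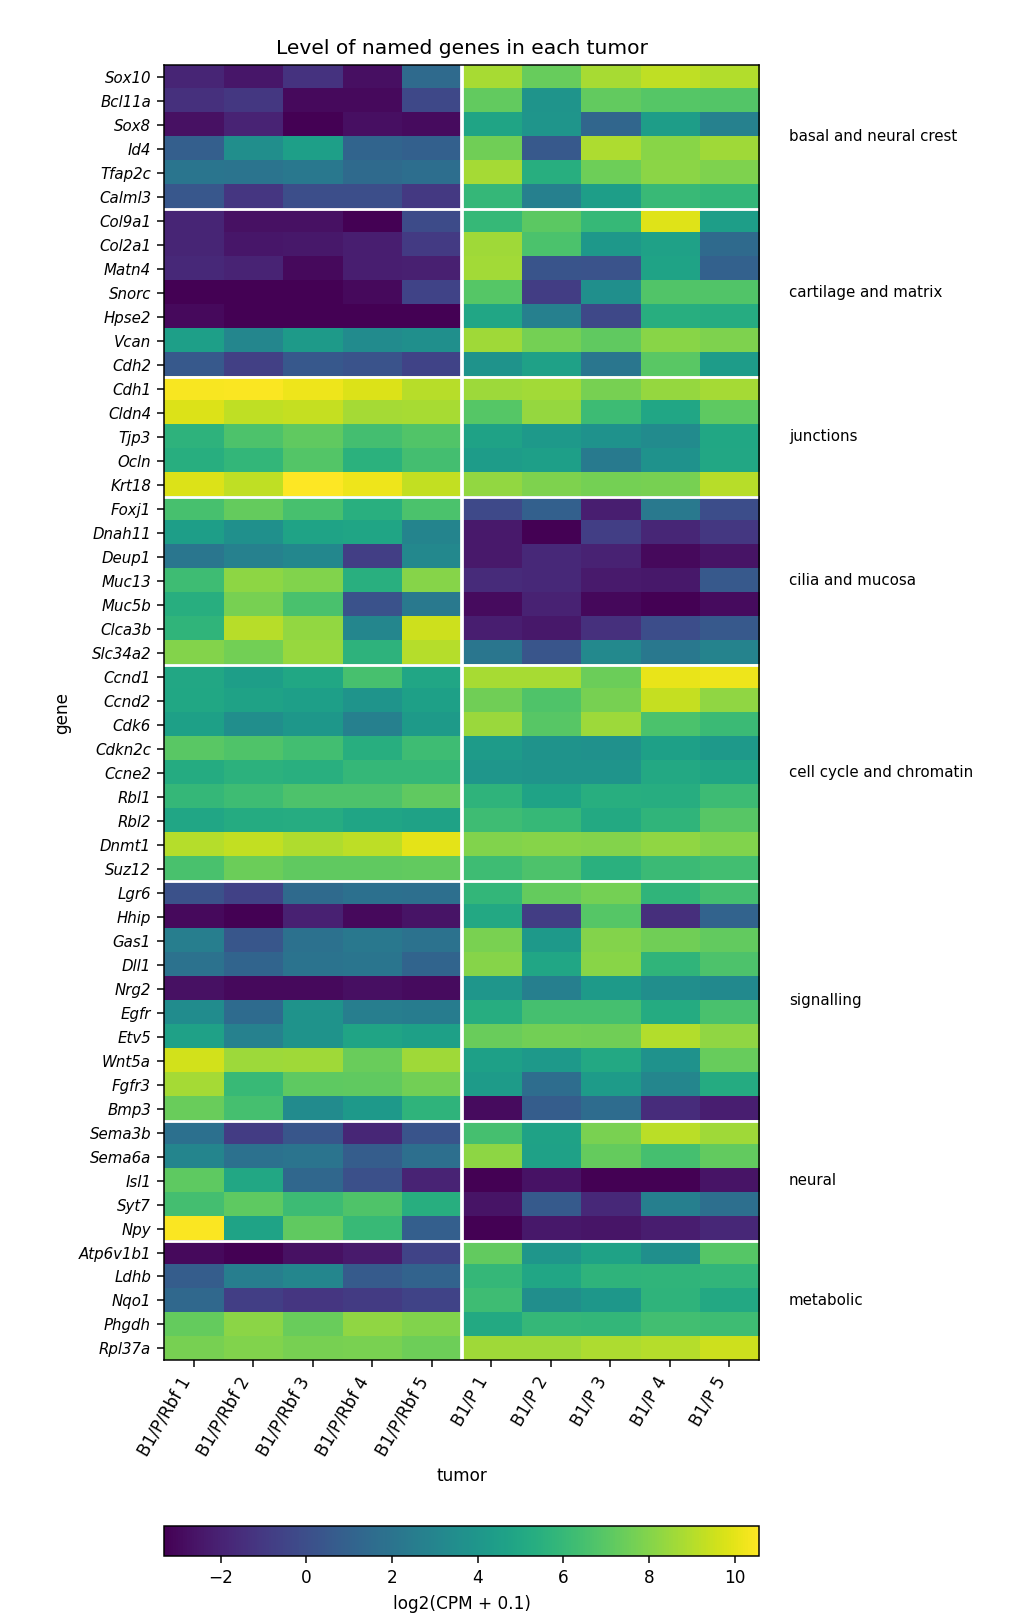
Level of named genes in each of the 10 tumors, as log2(CPM + 0.1) in color, with the B1/P/Rbf tumors in the left columns, the B1/P tumors in the right columns and the genes in blocks by function. Sox8 and Nrg2 are dark in all 5 B1/P/Rbf tumors, Dnah11 and Muc5b are dark in all 5 B1/P tumors, and B1/P 2 differs from the rest of its group for Id4 (1.39 CPM).

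Among genes of motile cilia more were called higher than lower in B1/P/Rbf tumors. Motile cilia beat on airway, ependymal and oviduct cells and are not a feature of the mammary duct. Of 29 tested, 11 were higher and 2 lower, with a median of 1.28. With a filter of at least 6 CPM in 6 samples 7 were tested, 2 of them higher, and the median was 0.50. A gene that reaches 6 CPM only in the 5 B1/P/Rbf tumors cannot pass that filter. The number lower was 1 without any of B1/P/Rbf 2, 3, 4 or 5 or B1/P 3 or 5. Foxj1, the master regulator of ciliogenesis, was at 93.5, 158, 91.7, 43.2 and 101 CPM in B1/P/Rbf and at 0.731, 1.81, 0.126, 4.73 and 0.883 CPM in B1/P tumors (5.88 ± 0.87, edgeR adjusted p = 0.000613). All 5 B1/P/Rbf tumors thus lay far above the B1/P tumors, B1/P/Rbf 4 lowest. Dnah11, a dynein heavy chain of the outer arm, was at 22.1, 12.3, 26.9, 29.0 and 7.6 CPM against 0.0954, 0, 0.503, 0.177 and 0.378 CPM (6.37 ± 1.07, edgeR adjusted p = 0.00123). Deup1, which builds deuterosomes for centriole amplification, was at 4.25, 6.72, 8.52, 0.507 and 8.99 CPM against 0.0296 to 0.207 CPM (5.68 ± 0.95, edgeR adjusted p = 0.00123). Neither gene overlapped between groups. P/Rbf tumors ranged from 2.43 to 38.1 CPM for Foxj1 and from 0.0631 to 9.26 CPM for Dnah11. Trp73, the p53 relative that acts above Foxj1 in multiciliated cells, went the other way, at 0.227 to 1.74 CPM against 30.0, 0.0592, 92.1, 20.1 and 73.9 CPM (-5.73 ± 1.28, edgeR adjusted p = 0.00664). B1/P 2 lay under all B1/P/Rbf tumors for Trp73, and limma-voom gave an adjusted p of 0.157.

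Mucosal and secretory genes also had more members called higher than lower. Of 29 tested, 9 were higher and 2 lower, with a median of 0.73 that was 0.13 without B1/P/Rbf 1 and 0.48 without B1/P 4. Their summed level was 699 to 1850 CPM in B1/P/Rbf and 179 to 2570 CPM in B1/P tumors, and the highest sum was that of B1/P 2. Muc13, a membrane mucin of gut epithelium, was at 77.3, 292, 249, 42.8 and 269 CPM in B1/P/Rbf and at 0.223, 0.207, 0.101, 0.0887 and 1.39 CPM in B1/P tumors (8.87 ± 1.26, edgeR adjusted p = 0.000468). Muc5b, a gel-forming mucin of airways, was at 41.1, 207, 94.0, 1.04 and 4.84 CPM against 0.0318, 0.148, 0.0251, 0 and 0.0315 CPM (10.42 ± 2.43, edgeR adjusted p = 0.00825). Its level spread widely among the B1/P/Rbf tumors, the groups did not overlap, and it missed the threshold in limma-voom (adjusted p = 0.2) and against B1/P tumors 1 to 3 alone (adjusted p = 0.0543). DESeq2 gave no adjusted p for Muc5b and so did not call it. Clca3b, of a family secreted by mucous cells, was at 53.4, 546, 318, 8.22 and 738 CPM against 0.0889 to 1.39 CPM (9.23 ± 1.85, edgeR adjusted p = 0.00331). The P/Rbf tumors ranged from 4.42 to 359 CPM for Muc13 and from 1.61 to 4140 CPM for Muc5b.

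Milk and luminal genes were divided. Of 19 milk protein and lactation genes, 5 were lower and 2 higher, with a median of -1.38, or -0.68 with a term for library sets. The number higher was 1 without any of B1/P/Rbf 1 or 3 or B1/P 1, 3, 4 or 5. Csn2, for beta-casein, was at 0.0284, 0, 0, 0.152 and 0 CPM in B1/P/Rbf and at 4.55, 76.9, 2.39, 3.7 and 25.4 CPM in B1/P tumors, so that transcripts were near absent in every B1/P/Rbf tumor (-9.09 ± 1.34, edgeR adjusted p = 0.000587). Slc34a2, the phosphate transporter of the lactating gland and lung, was among the genes that rose, at 253, 195, 342, 51.3 and 522 CPM against 4.29, 1.18, 9.35, 4.55 and 7.28 CPM (5.67 ± 1.00, edgeR adjusted p = 0.00157). Of 26 luminal lineage transcription factors, 9 were higher and 2 lower, with a median of 0.67. Without B1/P/Rbf 3 the number higher was 5, and without B1/P/Rbf 4 or B1/P 2 the number lower was 4. Stat5a, which carries the prolactin signal, was at 465, 175, 58.0, 343 and 221 CPM against 27.3, 48.0, 12.8, 44.0 and 20.6 CPM (3.05 ± 0.63, edgeR adjusted p = 0.00398). Tfap2c, an AP-2 factor with roles in luminal cells, fell, at 4.11, 3.91, 4.58, 2.74 and 3.12 CPM against 418, 41.4, 179, 288 and 232 CPM (-5.97 ± 0.81, edgeR adjusted p = 0.000363). None of these 4 genes overlapped between the groups.

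Genes of Wnt signaling, which maintains mammary stem cells, included many called lower. Of 54 ligands, receptors, inhibitors and targets, 24 (44.4%) were lower and 6 higher, with a median of -1.38. The count higher was 3 without B1/P/Rbf 1, B1/P/Rbf 2 or B1/P 4, and the count lower was between 17 and 23 when any 1 tumor was left out. Among the ligands, Wnt6 was at 0.0276 to 0.26 CPM in B1/P/Rbf and at 17.6, 0.0296, 13.7, 12.2 and 1.07 CPM in B1/P tumors, with B1/P 2 inside the B1/P/Rbf range (-6.70 ± 1.38, edgeR adjusted p = 0.00386). Wnt5a, a noncanonical ligand, rose, at 797, 377, 391, 166 and 387 CPM against 23.3, 17.2, 33.4, 13.2 and 165 CPM, where B1/P 5 came just under the lowest B1/P/Rbf tumor (3.07 ± 0.82, edgeR adjusted p = 0.0172). Among the receptors, Lgr6, which binds R-spondins and marks epithelial stem cells, was at 0.993, 0.54, 2.67, 3.4 and 3.25 CPM against 58.2, 155, 201, 53.5 and 84.4 CPM, far apart (-5.67 ± 0.71, edgeR adjusted p = 0.000196). Dkk2, a secreted modulator of the LRP coreceptors, rose, at 300, 20.3, 58.6, 54.9 and 9.09 CPM against 0.381 to 4.17 CPM (5.49 ± 1.14, edgeR adjusted p = 0.00421).

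Hedgehog and Notch lists also had more members called lower than higher. Of 22 Hedgehog pathway genes, 10 were lower and 1 higher, with a median of -1.18. Hhip, which binds Hedgehog ligands and is raised by the pathway, was at 0.138 CPM or less in all B1/P/Rbf tumors and at 33.7, 0.474, 120, 0.266 and 2.08 CPM in B1/P tumors (-9.16 ± 1.86, edgeR adjusted p = 0.00364). B1/P 3 was the highest. Gas1, a coreceptor, was at 5.96, 1.21, 3.47, 4.59 and 3.73 CPM against 220, 18.0, 259, 187 and 148 CPM (-5.45 ± 0.72, edgeR adjusted p = 0.000303). Cdon, another coreceptor, was the member that rose, at 185, 267, 125, 203 and 466 CPM against 38.6, 107, 56.9, 82.2 and 40.4 CPM (1.94 ± 0.36, edgeR adjusted p = 0.00215). Of 30 Notch genes, 6 were lower and 1 higher, with a median of -0.57, and without any of B1/P/Rbf 2, 4 or 5 or B1/P 3, 4 or 5 the number higher was 0. Dll1, a ligand of basal mammary stem cells, was at 3.69, 2.16, 3.86, 4.06 and 2.11 CPM against 261, 29.8, 277, 54.9 and 102 CPM (-5.51 ± 0.61, edgeR adjusted p = 7.61e-05). The groups did not overlap for these 4 genes.

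In the TGF-beta, BMP and activin list, 14 of 58 genes were lower and 5 higher, with a median of -0.57. The count higher was 2 without B1/P/Rbf 1, B1/P 1 or B1/P 4 and 3 without B1/P 3. Bmp3, an antagonist of bone-forming BMPs, was at 170, 89.5, 10.2, 17.3 and 51.6 CPM in B1/P/Rbf and at 0.0318, 1.6, 2.92, 0.237 and 0.126 CPM in B1/P tumors (6.09 ± 1.22, edgeR adjusted p = 0.00332). Gdf5, a ligand of joint formation, was at 0.0551 CPM or less in all B1/P/Rbf tumors against 8.81, 0.681, 0.553, 5.53 and 3.15 CPM, at least 44.3-fold lower on group means, with the same floor (edgeR adjusted p = 0.00052). Tgfbr3, the coreceptor betaglycan, was at 22, 7.1, 3.28, 1.55 and 2.56 CPM against 114, 28.7, 350, 34.8 and 150 CPM, without overlap (-4.21 ± 0.97, edgeR adjusted p = 0.00757).

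Transcripts of receptor tyrosine kinase signaling were measured from ligand to target. Of 18 ErbB receptors and ligands, 5 were lower and 1 higher, with a median of -0.68 that was -0.39 without B1/P 1, and the count higher was 2 without B1/P/Rbf 2 and 3 without B1/P 5. Egfr, the EGF receptor, was at 10.6, 2.81, 14.1, 6.04 and 5.71 CPM in B1/P/Rbf and at 40.1, 88.1, 89.2, 37.7 and 96.1 CPM in B1/P tumors, without overlap (-3.16 ± 0.53, edgeR adjusted p = 0.0012). Nrg2, a neuregulin ligand, was at 0.0567 CPM or less in every B1/P/Rbf tumor against 15.6, 6.31, 19.2, 11.5 and 9.55 CPM, at least 147-fold lower (edgeR adjusted p = 0.000202). Epgn, the EGFR ligand epigen, rose, at 11.1, 59.2, 12.0, 18.5 and 5.62 CPM against 0.414 to 2.39 CPM (3.81 ± 0.77, edgeR adjusted p = 0.00364). Of 52 other receptor tyrosine kinases and ligands, 12 were lower and 1 higher, with a median of -0.93, and 2 were higher without B1/P/Rbf 4. Fgfr3, an FGF receptor, was the member that rose, at 411, 66.4, 142, 143 and 193 CPM against 19.8, 3.08, 20, 8.07 and 37.8 CPM (3.43 ± 0.87, edgeR adjusted p = 0.0132).

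Downstream, 5 of 35 MAPK feedback and immediate early genes were lower and 3 higher, with a median of -0.20. The count higher was 5 without B1/P 2, and the count lower was 3 without B1/P/Rbf 2. Etv5, Dusp6 and Spred1 were among the lower ones. Etv5, an ETS factor, was at 24.4, 6.85, 14.1, 27.5 and 23.8 CPM in B1/P/Rbf and at 168, 199, 191, 497 and 310 CPM in B1/P tumors (-3.82 ± 0.55, edgeR adjusted p = 0.000486). Dusp6, the phosphatase of ERK, was at 82.2, 18.6, 103, 47.0 and 31.7 CPM against 216, 219, 177, 246 and 289 CPM (-2.02 ± 0.50, edgeR adjusted p = 0.0122). Spred1, an inhibitor of RAS activation, was at 31.2 to 80.4 CPM against 95.3 to 270 CPM (-1.40 ± 0.29, edgeR adjusted p = 0.00441). Fos, an immediate early gene, rose, at 51.1, 53.6, 72.6, 81.1 and 112 CPM against 33.0, 33.5, 30.1, 35.0 and 37.3 CPM (1.13 ± 0.26, edgeR adjusted p = 0.00771). Its B1/P values lay within a narrow range, and none of the 4 genes overlapped between groups.

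Neuroendocrine, channel and axon guidance genes changed in both directions. Of 38 neuroendocrine and synaptic vesicle genes, 6 were higher and 2 lower, with a median of 0.37. The median was -0.26 without B1/P/Rbf 3 and 1.13 with a term for library sets. The number lower was 1 without any of B1/P/Rbf 2 or 4 or B1/P 1 or 5. Npy, the neuropeptide Y precursor, lies outside this list and had one of the largest rises of all genes. It was at 1430, 26.5, 145, 65.4 and 1.75 CPM in B1/P/Rbf and at 0, 0.0889, 0.0754, 0.118 and 0.189 CPM in B1/P tumors (11.74 ± 1.85, edgeR adjusted p = 0.00087). Its level spread widely among the B1/P/Rbf tumors. Isl1, a LIM homeobox factor of endocrine and neural cells, was at 141, 31.9, 2.4, 0.964 and 0.162 CPM against 0.0631 CPM or less, at least 399-fold higher on group means (edgeR adjusted p = 0.0012). B1/P/Rbf 1 and 2 accounted for most of that mean. Syt7, a calcium sensor of exocytosis, was at 84.8, 140.0, 72.5, 109 and 41.9 CPM against 0.0636, 1.45, 0.201, 6.39 and 3.22 CPM (5.31 ± 1.16, edgeR adjusted p = 0.00579). Nrxn3, a synaptic adhesion gene, was at 17.4, 7.1, 2.62, 18.9 and 22.5 CPM against 0.0318 to 2.11 CPM (4.68 ± 1.28, edgeR adjusted p = 0.0192).

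Of 115 voltage-gated and potassium channel genes, 16 were higher and 18 lower, with a median of -0.57 that was -0.27 without B1/P 5 and -0.09 with a term for library sets. The count higher was 8 without B1/P 1 and 10 without B1/P/Rbf 2, B1/P 2 or B1/P 5, and the count lower was 11 without B1/P/Rbf 2. Kcne2, a potassium channel subunit of secretory epithelia, was at 104, 15.8, 12.7, 1.65 and 311 CPM in B1/P/Rbf and at 0.0296 to 0.326 CPM in B1/P tumors (9.53 ± 2.07, edgeR adjusted p = 0.00547). Kcnk16, a background potassium channel, was at 25.5 to 68.1 CPM against 0.148 to 3.31 CPM (5.29 ± 1.06, edgeR adjusted p = 0.00331). Kcns1, a silent modifier subunit, fell, at 0.0325 to 0.482 CPM against 37.4, 0.652, 80.0, 1.72 and 10.6 CPM (-7.17 ± 1.3, edgeR adjusted p = 0.00191). Of 64 axon guidance genes, 17 were lower and 5 higher, with a median of -0.68. The count lower ranged from 8 without B1/P/Rbf 5 through 9 without B1/P/Rbf 2 or 4, 10 without B1/P 4 and 11 without B1/P 3 or 5, and the count higher was 2 without B1/P/Rbf 2, B1/P 4 or B1/P 5 and 3 without B1/P/Rbf 3 or B1/P 1. Semaphorins, secreted or membrane-bound guidance cues, led the lower ones. Sema3b was at 3.4, 0.459, 1.24, 0.178 and 1.14 CPM against 87.8, 25.9, 223, 563 and 381 CPM (-7.64 ± 1.07, edgeR adjusted p = 0.000429). Sema6a was at 1.6 to 8.0 CPM against 24.9 to 294 CPM (-5.15 ± 0.70, edgeR adjusted p = 0.000361). Sema5a was at 1.08 to 9.69 CPM against 17.6 to 364 CPM (-5.48 ± 1.01, edgeR adjusted p = 0.00206). For all 3 semaphorins the groups stood apart, and B1/P 2 was the lowest of its group.

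Of 81 cytosolic ribosomal protein genes, 20 were lower, 0 higher and 61 not called. Their differences ran from -3.66 to 0.38, with 3 positive and a median of -0.55. With a term for library sets 7 were lower, and the count was 13 without B1/P/Rbf 3 or B1/P 5 and 10 without B1/P/Rbf 5. Their summed level was 33000, 35500, 31000, 34100 and 26000 CPM in B1/P/Rbf and 43000, 41100, 51700, 52700 and 52800 CPM in B1/P tumors. The sums did not overlap. Rps12 was at 475, 330.0, 314, 475 and 272 CPM against 1100, 525, 1070, 1090 and 2190 CPM (-1.68 ± 0.35, edgeR adjusted p = 0.00389). Rpl37a was at 183 to 247 CPM against 388 to 728 CPM (-1.23 ± 0.19, edgeR adjusted p = 0.000677). Ribosomal protein genes have many processed pseudogenes that can share reads with them, so single values carry that uncertainty.

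The proton pump, detoxification and amino acid lists had more members called lower than higher. Of 23 V-ATPase subunits, 6 were lower and 1 higher, with a median of -0.13, and the number higher was 2 without B1/P 2 and 0 without any of B1/P/Rbf 2 or 5 or B1/P 4 or 5. Among the lower ones were subunits found in acid-secreting epithelia. Atp6v1b1 was at 0.0284, 0, 0.0551, 0.101 and 0.584 CPM in B1/P/Rbf and at 12.1 to 150.0 CPM in B1/P tumors (-8.74 ± 1.41, edgeR adjusted p = 0.000968). Atp6v0a4 was at 0.38 CPM or less against 6.39 to 33.1 CPM (-6.39 ± 1.10, edgeR adjusted p = 0.00141). Of 99 glutathione, aldehyde and xenobiotic enzymes, 16 were lower and 8 higher, with a median of -0.46 that was -0.22 without B1/P 3, and the count higher was 5 without B1/P/Rbf 1 or B1/P 3. Nqo1, a quinone reductase under the control of NRF2, was at 2.52, 0.486, 0.358, 0.431 and 0.584 CPM against 74.9, 11.5, 16.2, 51.9 and 32.9 CPM (-5.41 ± 0.88, edgeR adjusted p = 0.00103). Of 44 amino acid and serine pathway genes, 10 were lower and 3 higher, with a median of -0.21, and the count higher was 1 without B1/P/Rbf 1, B1/P/Rbf 3, B1/P 1 or B1/P 4. The first and last enzymes of serine synthesis differed in sign. Phgdh, the first enzyme, was at 158, 283, 170.0, 307 and 244 CPM against 34.5, 60.1, 59.4, 82.9 and 75.2 CPM (1.90 ± 0.50, edgeR adjusted p = 0.0166). Psph, the last, was at 10.4, 12.4, 10.6, 24.4 and 9.71 CPM against 49.1, 17.0, 50.6, 46.3 and 64.3 CPM, with B1/P 2 under B1/P/Rbf 4 (-1.75 ± 0.37, edgeR adjusted p = 0.00455). In the hypoxia and glycolysis list, where 1 symbol has 2 identifiers, 3 of 40 tested entries were lower and 1 higher, a smaller share than of all genes, and the number higher was 0 without any of B1/P/Rbf 2, 3 or 4 or B1/P 3, 4 or 5. Its lowest member, Ldhb, the heart type subunit of lactate dehydrogenase, was at 1.5 to 8.27 CPM against 29.2 to 60.5 CPM, without overlap (-3.69 ± 0.99, edgeR adjusted p = 0.0177).

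Immune lists had few calls. Of 23 MHC class I presentation genes all 23 had a positive difference, with a median of 0.82, but 2 were called higher and 0 lower. The count higher was 10 without B1/P 3, 4 without B1/P 2 and 1 without B1/P/Rbf 1 or 4, and it was 0 without any of B1/P/Rbf 2, 3 or 5 or B1/P 1, 4 or 5. Of 44 interferon-stimulated genes, 40 had a positive difference, with a median of 0.54 that lay between 0.28 without B1/P 1 and 0.96 without B1/P 3, and 1 was called higher and 0 lower, or 3 higher without B1/P 2. The summed level of the interferon-stimulated genes was 1690 to 6100 CPM in B1/P/Rbf and 686 to 5890 CPM in B1/P tumors, so the spread within each group exceeded the difference. Of 101 interleukins, TNF family members and receptors, 5 were higher and 9 lower, with a median of -0.22 that was 0.25 without B1/P 2. The count higher was 11 without B1/P 2 and 3 without any of B1/P/Rbf 1, 2 or 5 or B1/P 1 or 5. Il1rl1, the interleukin 33 receptor, was at 70.5, 200, 10.3, 2.61 and 3070 CPM against 0.858, 8.97, 0.779, 0.532 and 6.68 CPM (7.56 ± 1.73, edgeR adjusted p = 0.00737), and limma-voom gave an adjusted p of 0.12. Its difference ranged from 4.31 to 8.25 over the alternative settings. Tnfrsf11b, the decoy receptor osteoprotegerin, was at 0.701 to 4.23 CPM against 11.3 to 34.3 CPM (-3.48 ± 0.53, edgeR adjusted p = 0.00066). Il1rap, the shared chain of interleukin 1 family receptors, was at 3.63 to 7.79 CPM against 8.3 to 108 CPM (-3.20 ± 0.60, edgeR adjusted p = 0.00235). Neither of the last pair overlapped between groups.

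Cell type markers of blood and vessels gave 0 calls in edgeR among 14 macrophage, 9 neutrophil, 16 endothelial and 12 B and plasma cell genes. At an unadjusted p under 0.05, 2 macrophage, 0 neutrophil and 1 endothelial genes were lower and 2 B and plasma cell genes higher. EdgeR called 1 macrophage gene lower without B1/P/Rbf 1 or B1/P 1, and 1 endothelial gene lower without B1/P/Rbf 1 or B1/P 5. DESeq2 called 1 macrophage, 0 neutrophil and 1 endothelial genes lower and 1 B and plasma cell gene higher, and limma-voom called only 1 B and plasma cell gene, higher. Their summed levels overlapped between groups for macrophages (370 to 1130 CPM in B1/P/Rbf and 512 to 3810 CPM in B1/P tumors), neutrophils (13.6 to 117 CPM and 7.82 to 545 CPM) and endothelium (354 to 891 CPM and 292 to 948 CPM). For B and plasma cell genes the sums were 670 to 1070 CPM against 147 to 579 CPM, without overlap. A sum rests on the most abundant members. The mean log2 CPM of the list did overlap, at -1.463 to 0.799 in B1/P/Rbf and -1.023 to 0.466 in B1/P tumors, with B1/P/Rbf 3 the lowest. Of 21 T and NK cell genes 1 was called, with sums of 7.99 to 185 CPM against 13.0 to 123 CPM. That gene was Gzma, a granzyme, at 23.3, 26.8, 62.2, 0.989 and 16.8 CPM against 0.191, 0.415, 2.29, 0.325 and 1.32 CPM (4.83 ± 1.13, edgeR adjusted p = 0.00842), whereas Cd3e, which defines T cells, was at 3.57 CPM or less in all 10 tumors. Of 6 erythroid markers 4 were lower and 0 higher, with sums of 37.6 to 109 CPM against 47.5 to 427 CPM, and the count was 0 without B1/P/Rbf 2, 1 without B1/P 5 and 2 without any of B1/P/Rbf 3 or 5 or B1/P 3. Adipocyte markers were higher in 2 of 14 genes, with sums of 52.1 to 340.0 CPM against 42.4 to 146 CPM, and the count was 4 without B1/P 5 and 1 without B1/P/Rbf 1 or 3. Dendritic and mast cell markers were higher in 2 of 12 genes, a count that was 1 or 0 without any 1 tumor. Of 15 skeletal muscle markers 10 were lower and 0 higher, and their sum was 19.4 to 39.2 CPM in B1/P/Rbf and 17.0, 18.7, 23.3, 23.9 and 913 CPM in B1/P tumors. Only B1/P 5 stood apart, and without it 3 were lower. Myh4, a fast muscle myosin, was at 230.0 CPM in B1/P 5 and at 5.63 CPM or less in the other tumors.

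Germline and meiotic genes were lower in 7 and higher in 2 of 28 members, with a median of -0.24, and the number higher was 1 without any of B1/P/Rbf 2, 4 or 5 or B1/P 3 or 5. Piwil2, a PIWI protein of the testis, was at 1.33, 0.378, 1.3, 0.634 and 1.53 CPM in B1/P/Rbf and at 64.6, 3.94, 68.1, 88.1 and 61.0 CPM in B1/P tumors. The groups stood apart, with B1/P 2 well under the other B1/P tumors (-5.79 ± 0.69, edgeR adjusted p = 0.000139). Terb1, a telomere tether of meiotic chromosomes, rose, at 2.07, 2.4, 4.44, 3.17 and 2.43 CPM against 0.922, 0.563, 0.201, 1.12 and 0.694 CPM (2.05 ± 0.49, edgeR adjusted p = 0.00954). The apoptosis regulator Mcl1 was called higher on the strength of 1 tumor, at 239, 204, 6320, 235 and 224 CPM against 143, 357, 175, 146 and 239 CPM (2.77 ± 0.85, edgeR adjusted p = 0.0338). Without B1/P/Rbf 3 its difference was 0.09 (edgeR adjusted p = 0.854).

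The term for the inferred library sets, which sets B1/P 4 and 5 apart from B1/P 1 to 3 and all B1/P/Rbf tumors, moved further list counts by more than 1.5 times. With it the comparison in effect rests on B1/P 1 to 3, so a library set cannot be told apart from the choice of B1/P tumors. Fewer genes were called higher for voltage-gated and potassium channels (9), Wnt (3), axon guidance (2), TGF-beta, BMP and activin (2), amino acid and serine (1), interleukin and TNF (1), milk protein (1), adipocyte (1), Notch (0), MHC class I (0), interferon-stimulated (0) and dendritic and mast cell genes (0). Fewer were called lower for axon guidance (8), ErbB (3), MAPK (3), Schwann cell (3), squamous (2), p53 target (2), germline (2), motile cilium (1), luminal (1), skeletal muscle (1) and erythroid genes (0). More were called higher for DNA methylation and Polycomb genes (5), replication-dependent histone genes (3) and skeletal muscle markers (1), and more were called lower for fibroblast (5), macrophage (1), endothelial (1) and dendritic and mast cell markers (1). The median of MHC class I genes was 0.46 and that of interferon-stimulated genes 0.23 with this term.

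The calls were not spread evenly over the chromosomes, in coordinates of GRCm38. On chromosome 5, 234 of 1229 tested genes (19.0%) were lower and 5.86% higher, against 9.29% and 7.36% of all genes. Its share of lower genes was the highest of all chromosomes in the fit over all samples and without any 1 tumor, between 14.2% and 22.4%, and it was 11.8% with a term for library sets. Fitted on the 10 tumors alone, chromosome 5 came in second place at 11.6%. Chromosome 15 followed with 13.7% lower and had 8.59% without B1/P/Rbf 2 and 9.51% with a term for library sets. The shares of higher genes were greatest on chromosomes 18 (13.6%), 9 (12.1%) and 7 (10.3%). That of chromosome 18 was 8.19% without B1/P/Rbf 2 and 6.43% with a term for library sets, no longer the greatest in either setting. Nor was it the greatest in DESeq2, with a filter at a log2 CPM of at least 6, or against B1/P tumors 1 to 3 alone. The same held without B1/P/Rbf 4 and without any of B1/P 1, 3, 4 or 5. The median level of chromosome 18 genes was 0.52 in B1/P/Rbf 2 and 0.25 in B1/P/Rbf 4 and lay between -0.02 and 0.03 in the other B1/P/Rbf tumors. The median level of the genes of a chromosome, relative to the other tumors, also differed between tumors of 1 group: on chromosome 7 it was -0.30, -0.35 and -0.32 in B1/P tumors 1 to 3 and 0.20 and 0.08 in B1/P 4 and 5, against 0.10 to 0.15 in B1/P/Rbf tumors. B1/P 4 and 5 share an inferred library set with the P/Rbf tumors, which ran from -0.55 to 0.19. On chromosome 5 it was -0.17 in B1/P 2 and 0.05 to 0.23 in the other B1/P tumors, against -0.19 to -0.01 in B1/P/Rbf tumors. On chromosome 19 it was -0.75 and -0.64 in B1/P/Rbf 3 and 5 and 0.11 to 0.16 in the other B1/P/Rbf tumors. Whether copy number differed was not tested.

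**Figure D4:**
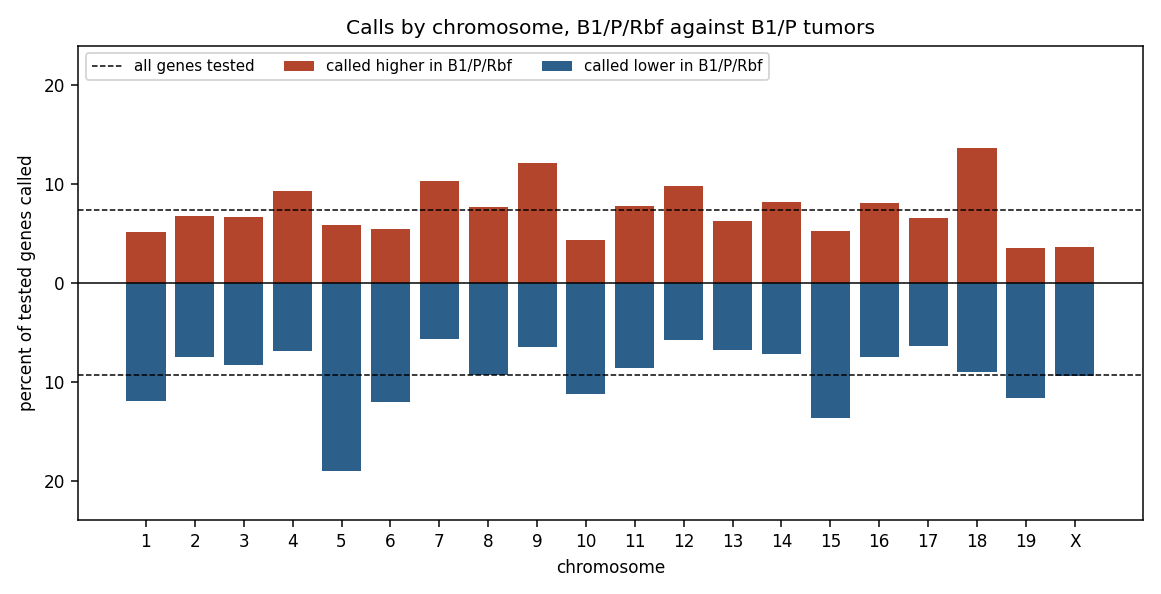
Percent of the tested genes of each chromosome that were called higher (up) and lower (down) in B1/P/Rbf tumors, with dashed lines at the shares of all genes (7.36% and 9.29%). Chromosome 5 has the greatest share of lower genes, 19.0%.

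Neighboring genes moved together in a pair of stretches, whose genes were chosen after their values were seen. On chromosome 6, from 66552180 to 67021350, genes called higher lay side by side, with Gm9794 among them not called. Gng12, a G protein gamma subunit, was at 901, 1030, 305, 424 and 1110 CPM in B1/P/Rbf and at 126, 152, 88.2, 97.2 and 132 CPM in B1/P tumors (2.66 ± 0.35, edgeR adjusted p = 0.000303). All B1/P/Rbf tumors lay above all B1/P tumors, B1/P/Rbf 3 and 4 lowest. B1/P/Rbf 3 and 4 were also the lowest for the vomeronasal receptor genes beside it, which encode pheromone receptors of olfactory tissue. Vmn1r32 was at 33.9, 24.2, 5.49, 5.43 and 34.3 CPM against 0, 0, 0, 0.0296 and 0 CPM, at least 233-fold higher (edgeR adjusted p = 0.000196). Vmn1r38 was at 10.0, 27.2, 3.67, 4.13 and 41.5 CPM against 0.0296 CPM or less, at least 195-fold higher (edgeR adjusted p = 0.000303). Vmn1r34, Vmn1r35, Vmn1r36, Vmn1r-ps24 and Vmn1r39 were at 0 CPM in all B1/P tumors and were at least 39.4-fold, 54.3-fold, 16.0-fold, 83.4-fold and 62.6-fold higher. In the P/Rbf tumors, which carry the same transgene, Gng12 was at 81.6 to 188 CPM and none of these receptor genes exceeded 0.885 CPM.

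On chromosome 5, from 142627698 to 143248834, genes called lower lay side by side, with Slc29a4 and D430018E03Rik among them not called. This stretch includes Actb, for beta-actin, which is often used as a reference transcript. Actb was at 1660, 1200.0, 1350.0, 1630 and 1490 CPM in B1/P/Rbf and at 2760, 2260, 2360, 3110 and 2450 CPM in B1/P tumors, without overlap (-0.82 ± 0.18, edgeR adjusted p = 0.0054). Fscn1, the actin bundling protein fascin, was at 34.7, 16.0, 18.4, 37.0 and 11.8 CPM against 171, 51.4, 133, 291 and 69.6 CPM (-2.60 ± 0.43, edgeR adjusted p = 0.0011). Wipi2, which acts in autophagy, was at 113 to 129 CPM against 285, 130.0, 270.0, 301 and 281 CPM (-1.10 ± 0.19, edgeR adjusted p = 0.00146). Rnf216, a ubiquitin ligase, was at 68.9 to 81.6 CPM against 227, 90.6, 161, 236 and 163 CPM (-1.23 ± 0.20, edgeR adjusted p = 0.000968). Tnrc18, Fbxl18, Rbak and Zfp12 were lower by 0.97, 0.92, 2.01 and 1.69 on the log2 scale. B1/P 2 was the lowest B1/P tumor for all 8 genes, and for Tnrc18 and Rbak it lay within the B1/P/Rbf range.

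**Figure D5:**
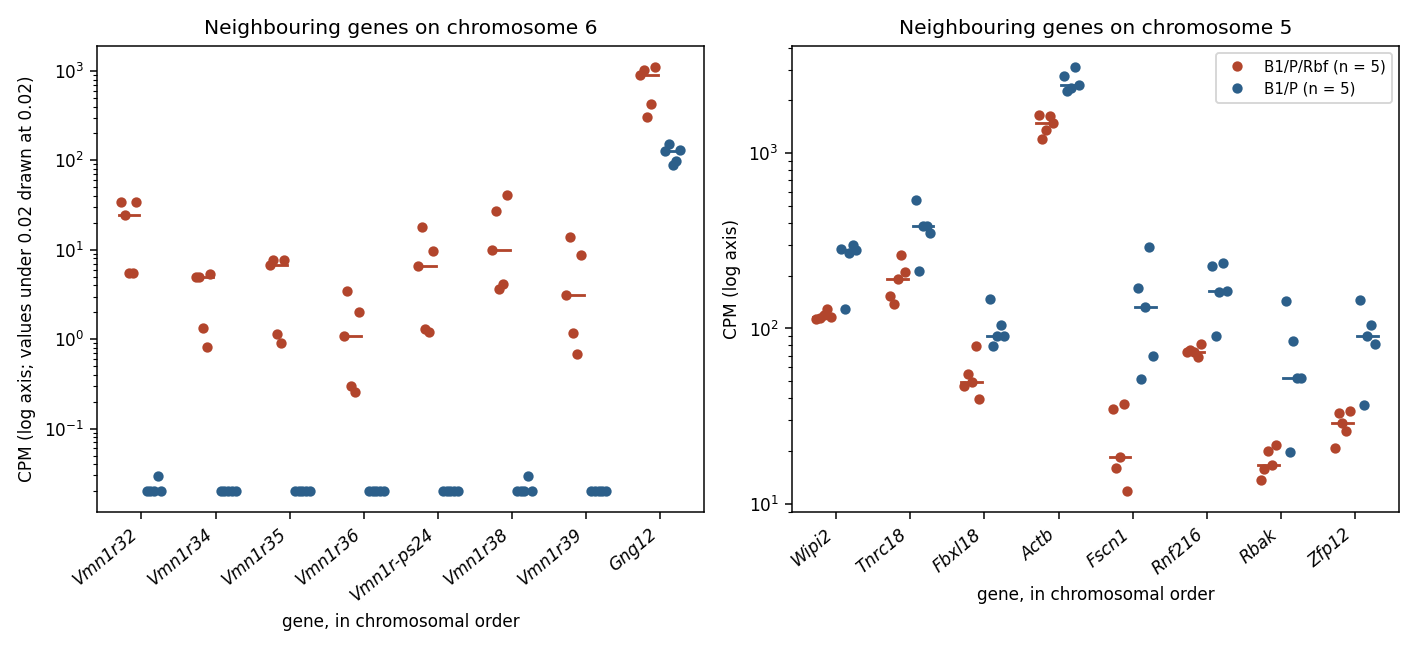
Levels of neighboring genes in each tumor for the stretch of chromosome 6 with Gng12 and the stretch of chromosome 5 with Actb, in CPM on a log axis, with 1 point per tumor, a line at the group median and genes in their order along the chromosome; on chromosome 6 values under 0.02 CPM are drawn at 0.02. The B1/P/Rbf tumors lie above the B1/P tumors on chromosome 6 and lower on chromosome 5, where B1/P 2 is nearest to them.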

How the data were processed

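RNA was sequenced from 18 mouse samples, 10 of which entered the comparison. The values are expected counts per gene, which the authors deposited after aligning and counting reads with RSEM 1.3.0, following cutadapt 1.18, FastQC 0.11.5 and Picard 1.119 (the submitters' processing notes). The notes name mm10 beside a human build. All 55450 identifiers matched GENCODE M21 (GRCm38), and 5.61% of values were not whole.

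Expected counts were rounded to whole numbers. Genes passing filterByExpr with a minimum count of 10 were fitted in edgeR 4.0.16 (R 4.3.3) over all 18 samples with TMM normalization and the quasi-likelihood test, and p-values were adjusted over 19186 genes by Benjamini-Hochberg with a threshold of 0.05. CPM used TMM library sizes. Fold changes are B1/P/Rbf over B1/P on the log2 scale, ± SE. Alternatives were DESeq2 1.42.0, limma-voom 3.58.1 with quantile normalization, library sizes without TMM, other filters, the 10 tumors alone, a term for 2 library sets (B1/P 4 and 5, P/Rbf tumors and normal glands in one, the remaining tumors in the other) implied by the study's tabulated fold changes and not named in its methods, B1/P tumors 1 to 3 alone, a fold threshold, and leaving out each tumor. The authors named DESeq2 1.28.1 in their notes.

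Samples were grouped by title, with 1 library per mouse. Replicate pairs differed by 210 to 401 times the chi-square expected from counting. Depth was 27661173 to 36974448 counts per library, and 3 counts, the floor of fold bounds, were 0.0844 CPM on average for the B1/P/Rbf group and 0.0886 CPM for the B1/P group. In simulated data over 19186 genes, of which 200 were changed, 6.67% of 2-fold and 51.8% of 4-fold changes were called, and 0 unchanged genes were. Far more genes were called in the real comparison, so these shares do not give its power. The study's tables of comparisons served only to infer the library sets, and the T121 sequence was not used here.

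The members of the lists and the tests were chosen with earlier results of these data known. Named genes are the targeted and Rb family genes with Krt18, the 12 largest rises and falls without overlap and with a mean of at least 5 CPM in the higher group, up to 4 called genes in each direction from each list with a mean of at least 1 CPM in the higher group, and defining markers. Other genes are said to be chosen after their values were seen. Promoters were taken from RefSeq (GRCm38.p6) by symbol. Some genes are not reported here.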

Additional observations from a re-analysis of the deposited data

Results flagged for a closer look

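Each group of 5 tumors was examined for a highest or lowest tumor set apart from the rest, where the gap to the next tumor exceeded 0.71 of the range of the group on the log2 scale (Dixon's 95% critical value). Of 338 groups of values, 38 (11.2%) were set apart in this way. Chance gives about 1 in 20 where values follow a normal distribution, which these need not do, and many of the genes were named for a wide difference, so no excess over chance is shown. Some values set apart lie under the floor of 3 counts, among them Hpse2, Vmn1r32 and Vmn1r38. B1/P 2 accounted for 10 of the 38 and B1/P/Rbf 1 for 8. These values are given without an explanation.

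B1/P 2 was the lowest B1/P tumor for the following genes. Sox10 was at 164 CPM against a median of 439, Bcl11a at 14.3 against 120.0, Id4 at 1.39 against 277, Trp73 at 0.0592 against 30.0, Piwil2 at 3.94 against 64.6, Gas1 at 18.0 against 187, Ldhb at 29.2 against 53.5, Psph at 17.0 against 49.1 and Wipi2 at 130.0 against 281. It was the highest B1/P tumor for the mucosal and secretory genes, with a mean log2 CPM of 0.79 against a median of -0.08.

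B1/P/Rbf 1 had the highest mean log2 CPM of its group for several mesenchymal, vascular and signaling lists. The value was 4.66 for epithelial to mesenchymal transition genes, 3.89 for TGF-beta, BMP and activin genes, 4.25 for other receptor tyrosine kinases and ligands, 6.94 for fibroblast markers and 5.42 for endothelial markers. The same tumor was the lowest for the pocket protein, E2F and DREAM genes at 5.43, and the highest of its group for Hpse2 at 0.0284 CPM and Nqo1 at 2.52 CPM.

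The other tumors had fewer such values. In mean log2 CPM, B1/P/Rbf 4 was lowest for motile cilium genes at -0.12, B1/P/Rbf 2 for MAPK feedback and immediate early genes at 4.07 and for erythroid markers at 1.37, B1/P/Rbf 5 for ribosomal protein genes at 7.82 and B1/P 1 for erythroid markers at 1.49. B1/P 5 was highest for adipocyte markers at 2.12 and for skeletal muscle markers at 4.94. Among single genes of the B1/P/Rbf tumors, Mcl1 reached 6320 CPM in B1/P/Rbf 3 against a median of 235. Ccnd1 was highest in B1/P/Rbf 4 at 93.6 CPM, as was Psph at 24.4 CPM, and Deup1 was lowest there at 0.507 CPM. Snorc at 0.584 CPM and Wnt6 at 0.26 CPM were highest in B1/P/Rbf 5, and Myh4 at 0.243 CPM in B1/P/Rbf 2. Among the B1/P tumors, B1/P 4 was highest for Dnmt1 at 310.0 CPM and for Vmn1r32 and Vmn1r38 at 0.0296 CPM each, B1/P 5 for Muc13 at 1.39 CPM and Atp6v0a4 at 33.1 CPM, and B1/P 3 for Pdgfrb at 199 CPM.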

How the results depend on the processing

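Against 3195 genes called, DESeq2 called 4413, limma-voom 3077, library sizes without TMM 3158, no filter 2788 and a log2 fold change of at least 1 2597. A term for library sets gave 2388 calls, of which 1998 were shared, and B1/P tumors 1 to 3 alone gave 2361, of which 1980 were shared. Both settings rest on B1/P/Rbf against B1/P 1 to 3, with fewer B1/P tumors, and are not separate checks. With at least 6 CPM in 6 samples 1107 genes were lower, with a log2 CPM of at least 6 446 were higher and 440 lower, and these filters tested only 11988 and 4549 genes. In a fit of the 10 tumors alone 1069 were lower among 16542 genes tested. Without 1 tumor, 1077 to 1483 genes were higher and 1249 to 1993 lower, from 2326 calls without B1/P/Rbf 2 to 3476 without B1/P 2. The median difference moved between -0.08 and 0.02 over all these settings. Trp53, not called, turned positive without TMM (0.01), without the filter (0.01), in limma-voom (0.12) and among the 10 tumors alone (0.03), and ranged from -0.19 to 0.24 without 1 tumor. Cd3e, not called either, ranged from -0.93 to 0.34 without 1 tumor. The cause of these shifts was not tested. In simulated data with 200 changed genes, 2-fold changes were mostly not called. The real comparison called 3195 genes, which makes the adjusted p threshold less strict, so the simulated shares do not give its power. No paired analysis was possible because the tumors came from separate mice and their labels give no shared replicate numbers.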
